A study of Homo sapiens with 5 samples.

Results

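Methionine-free food was compared with normal food in tumours of HT-29, an established human colon cancer cell line, grown in mice. The comparison uses 3 of the 5 libraries of the series: 2 from methionine-free food, called replicate 1 and replicate 2, and 1 from normal food. Its members are the genes with a mean of at least 10 counts over these 3 libraries, which kept 9565 of the 26364 genes listed. The 16799 others were left out. The last genes inside this limit were LINC01128, CDA and SDC3 with a mean of 10 counts, and the first outside were NAIP (9.88), WDR72 (9.86) and EFNA4 (9.83).

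All tumours came from HT-29 cells that had been cultured in complete medium and then placed under the skin of female NOD SCID mice aged 5 weeks, a strain that has no T or B cells. The mice were then kept for 2 weeks on normal food, on food lacking methionine, on food lacking tryptophan and niacin, or on food lacking all of these. The last 2 foods have 1 library each. They are part of the same fit but have no spread of their own, and they serve 1 comparison at the end. HT-29 is 1 cell line, and a host without T and B cells shows nothing of how lymphocytes would respond. The labels leave it open whether both methionine-free libraries are separate mice. A p-value here therefore reflects the spread of these libraries alone, which could be technical.

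Methionine is an essential amino acid that starts protein chains and, once turned into S-adenosylmethionine by MAT2A, donates the methyl groups used by most methyltransferases. The by-product homocysteine is recycled to methionine by MTR or passed on to cysteine and glutathione. Shortage of an amino acid is sensed through the kinase GCN2 and the transcription factor ATF4, which switches on amino acid transporters and synthetic enzymes, and through mTORC1. Solid tumours also often run short of oxygen. The factor HIF-1 is then stable and switches on genes for vessel growth (VEGFA), vasodilation (ADM), glucose uptake and glycolysis (SLC2A1, HK2) and pH control (CA9).

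Library totals were 1088084 counts for normal food, 553502 for replicate 1 and 678618 for replicate 2. After TMM scaling, which corrects depth and composition, 1 count was worth 0.907, 1.79 and 1.58 CPM, the depth-scaled unit used here, in these libraries. Counts of 0 allow up to 3 counts, that is 2.72, 5.36 and 4.73 CPM. The epithelial markers EPCAM (642, 293 and 371 counts in normal food, replicate 1 and replicate 2) and KRT8 (7387, 3743 and 5339 counts) were abundant, while the intestinal factors CDX2 (16, 2 and 7) and CDX1 (9, 7 and 10) were near the limit. Markers of host cell types were close to absent under human symbols: COL1A2, COL3A1, DCN, CDH5, VWF, KDR, PTPRC, CSF1R, S100A8, S100A9, HBA1, HBB, KRT5 and KRT14 had 0 counts in the 3 libraries. CD68 (61, 22 and 27 counts), KRT10 (29, 14 and 16) and COL1A1 (11, 9 and 7) were the only host-type markers above 6 counts in any of the 3. Whether mouse reads were removed is not given in the sources used here. The normal library is titled in another style than both methionine-free libraries. If the titles reflect separate handling, diet and handling cannot be told apart.

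The genes that fell on methionine-free food included hypoxia-response and glycolysis genes, mucins and long nuclear RNAs. With edgeR's quasi-likelihood F-test, 21 genes (0.22%) fell and 0 (0%) rose at a Benjamini-Hochberg adjusted p below 0.05, with log2 fold changes from −4.02 to −1.58. At an unadjusted p below 0.05, 514 of the 9565 genes tested were lower and 235 higher, the background for the counts by list below. Just inside the threshold were PFKFB3 (adjusted p = 0.0440) and NEAT1 (0.0453), and just outside were KLHL24 (0.0533), GOLGA8A (0.0556) and MUC2 (0.0634). Among the 21 are 6 of the 43 measured members of the hypoxia or glycolysis lists: NDRG1, ADM, VEGFA, HK2, ENO2 and PFKFB3. In all 21 both methionine-free libraries lay below the normal library, and 19 of the 21 were lower in replicate 2 than in replicate 1. MUC5B, PIGR, MUC16 and SLC22A3 had few counts without methionine. They met the limit of 10 mean counts through the normal library, where they were high. DESeq2 called 1 gene lower (NDRG1) and 0 higher, limma-voom 25 lower and 0 higher. With the correction for transcript length given below, NDRG1 and ADM alone passed edgeR's test, though several others kept the size of their fold change. With 1 normal library, the spread of normal food is assumed to equal that of the methionine-free pair. The main fit gave each gene the pooled spread of genes of like abundance (infinite prior). How closely a gene's own 2 methionine-free libraries lay together therefore does not enter its p-value. CCDC183-AS1, with 57.2 and 15.8 CPM in replicates 1 and 2, had an edgeR adjusted p of 0.00101. In tumour RNA, fewer cells that express a gene and less RNA per cell cannot be told apart.

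**Figure D1:**
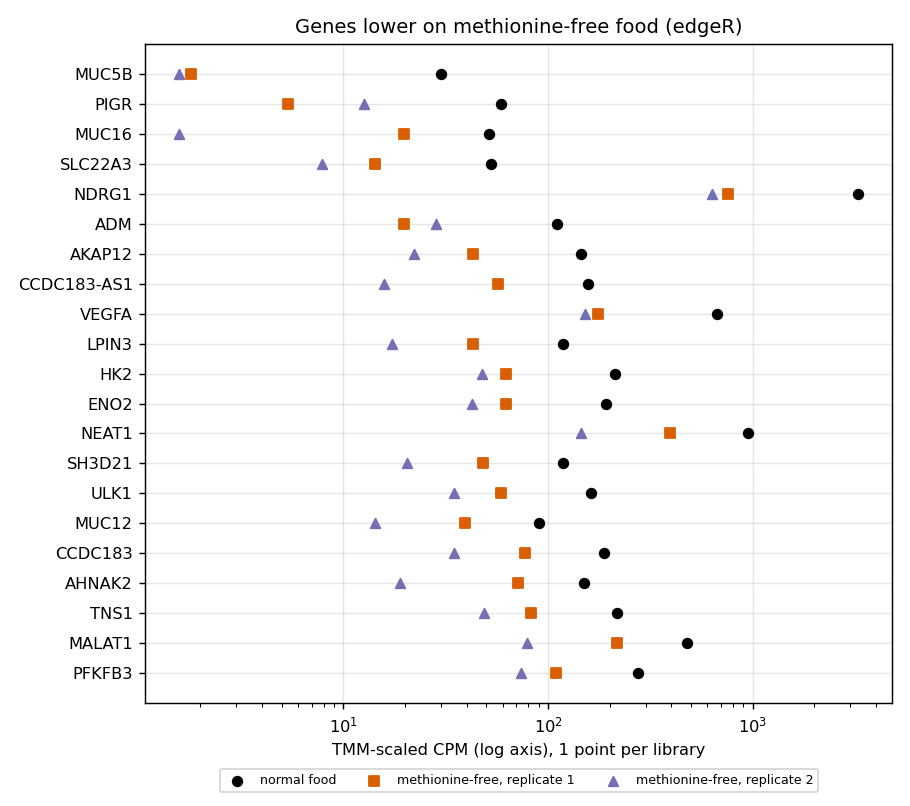
Level of each of the 21 genes lower on methionine-free food, as TMM-scaled CPM on a log axis, with 1 point per library. The normal library lies to the right of both methionine-free libraries in every row, from NDRG1 (3296 CPM against 762 and 632 CPM) down to MUC5B, which had 1 count in each methionine-free library.

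Of the hypoxia-response genes NDRG1, VEGFA and ADM fell. NDRG1, a stress gene that hypoxia induces, had 3296 CPM in the normal library, 762 CPM in replicate 1 and 632 CPM in replicate 2. Both methionine-free values were far below normal and close to each other (mean 697 ± 91.4 CPM, SD, n = 2). Its level was 4.33-fold lower in replicate 1 (95% exact counting interval 3.91 to 4.79) and 5.21-fold lower in replicate 2 (4.70 to 5.79), and the fitted log2 fold change was −2.24 (SE 0.55, edgeR adjusted p = 0.0302). VEGFA, the main growth factor for blood vessels, stood at 670 CPM on normal food against 175 and 151 CPM, which is 3.83-fold (3.10 to 4.77) and 4.43-fold (3.58 to 5.54) lower (log2 fold change −2.04, SE 0.43, edgeR adjusted p = 0.00302). ADM encodes adrenomedullin, a peptide that widens vessels. It had 111 CPM on normal food and 19.7 and 28.4 CPM without methionine, and it was one of the genes that replicate 1 placed lower than replicate 2 (log2 fold change −2.18, SE 0.44, edgeR adjusted p = 0.00190). These intervals cover counting error only, since copies made by PCR cannot be recognised in gene counts.

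Of 24 hypoxia-induced genes listed, 19 were measured. All 19 had a fitted log2 fold change below 0, against 50.3% of all genes above 0. PPFIA4, among them, had 27, 4 and 1 counts and met the count limit through the normal library alone. Of the 19, 3 passed the test, beside 0.22% of all genes tested. The median was −1.26 in the fit, −1.18 in replicate 1 and −1.22 in replicate 2, beside 0.01 over all genes tested in the fit. In 10 of the 19 both libraries were at least 2-fold lower with a counting interval that excluded 1, which held for 1% of all genes tested. Among members that did not pass the test, BNIP3L, a receptor for mitochondrial autophagy, had 103 CPM on normal food against 42.9 and 33.1 CPM (log2 fold change −1.43). The collagen prolyl hydroxylases P4HA2 (−1.34) and P4HA1 (−1.28), the histone demethylase KDM3A (−1.26) and the repressor BHLHE40 (−1.27) had similar values in both libraries. CA9, the carbonic anhydrase most used as a hypoxia marker, had 369 CPM against 193 and 181 CPM (−0.98, adjusted p = 0.548). At the other end of the list, FAM162A had 84.4, 64.4 and 85.2 CPM (−0.17). The list was put together with the behaviour of NDRG1, VEGFA and ADM already known, so its count is a description.

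The oxygen-sensing machinery itself had no called gene among 14 measured (median log2 fold change −0.09). HIF1A, the oxygen-regulated subunit, had 67.1 CPM on normal food and 60.8 and 66.2 CPM without methionine, and its partner ARNT had 44.5, 48.3 and 39.4 CPM. HIF-1 is mainly controlled as a protein, which these data do not measure. EGLN3, a hydroxylase of HIF that is itself a HIF target, was the lowest member, with 110 CPM against 55.4 and 44.2 CPM (−1.14, adjusted p = 0.391). TCEB1, which encodes the elongin C subunit of the VHL complex, was the highest, with 39.9 CPM against 73.3 and 82.0 CPM (0.96, adjusted p = 0.586).

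Among glycolysis genes, 3 genes fell, all isoenzymes or regulators, and none of the abundant core enzymes passed the test. HK2, the hexokinase induced in tumours, had 213 CPM on normal food and 62.6 and 47.3 CPM without methionine, which is 3.41-fold (2.38 to 5.01) and 4.51-fold (3.07 to 6.83) lower. The fitted log2 fold change was −1.96 (SE 0.40, edgeR adjusted p = 0.00231). ENO2, the neuronal-type enolase, had 191 CPM against 62.6 and 42.6 CPM (log2 fold change −1.87, edgeR adjusted p = 0.00367). PFKFB3, which makes the activator of phosphofructokinase, had 274 CPM against 109 and 74.1 CPM (log2 fold change −1.58, edgeR adjusted p = 0.0440). For each of these genes the normal library lay above both methionine-free libraries, and replicate 2 was the lowest.

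Other glycolytic enzymes differed less. HK1 had 165, 200 and 131 CPM (log2 fold change 0.00), ENO1 had 2022, 1917 and 2259 CPM (0.05), GAPDH 3880, 3607 and 4142 CPM (0.00) and PGK1 1297, 1005 and 1178 CPM (−0.25). None of these differed by 2-fold, and their methionine-free values lay on both sides of or near the normal library. SLC2A1, the glucose transporter GLUT1, was more than 2-fold lower in each library by the counts (1913 CPM against 874 and 861 CPM, log2 fold change −1.14), yet its adjusted p was 0.600. The modelled spread, as biological coefficient of variation, was 0.231 for SLC2A1 and 0.203 for HK2, with a median of 0.196 over genes. NDRG1, which passed the test, had 0.233. The SE was 0.53 for SLC2A1 and 0.55 for NDRG1, while their log2 fold changes were −1.14 and −2.24. At nearly the same SE, SLC2A1 thus had the smaller test statistic. PFKFB4, a relative of PFKFB3, had 39.9 CPM against 12.5 and 12.6 CPM (−1.65, adjusted p = 0.305). Over the 24 glycolysis genes 3 passed and 5 were 2-fold lower in both libraries, beside 0.22% and 1% of all genes tested. This list was also chosen with earlier results of these data known, so these counts are a description. The median was −0.43, with −0.49 in replicate 1 and −0.34 in replicate 2.

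HIF-1 binds the core ACGTG or GCGTG, and the stretches of 250 bases before the RefSeq start (GRCh38.p14) were searched for these letters on both strands. The promoters below belong to 4 of the 6 genes of the hypoxia and glycolysis lists that fell (NDRG1 and VEGFA are not shown) and to EGLN3, a HIF target that did not pass the test and held 0 matches. They are printed 5′ to 3′ on the strand of the gene with the core in capitals (CACGT or CACGC where it lies on the other strand).
ADM, chr11:10304823-10305072, plus strand: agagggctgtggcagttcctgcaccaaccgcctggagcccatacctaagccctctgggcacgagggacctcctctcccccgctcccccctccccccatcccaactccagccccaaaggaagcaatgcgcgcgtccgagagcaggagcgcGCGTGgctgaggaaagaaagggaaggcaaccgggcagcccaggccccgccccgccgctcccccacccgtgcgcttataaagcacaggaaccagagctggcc
HK2, chr2:74833877-74834126, plus strand: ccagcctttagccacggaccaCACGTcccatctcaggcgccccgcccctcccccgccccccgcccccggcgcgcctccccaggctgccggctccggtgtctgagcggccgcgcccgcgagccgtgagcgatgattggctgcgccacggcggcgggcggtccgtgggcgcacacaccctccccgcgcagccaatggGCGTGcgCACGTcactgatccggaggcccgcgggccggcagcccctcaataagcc
ENO2, chr12:6914330-6914579, plus strand: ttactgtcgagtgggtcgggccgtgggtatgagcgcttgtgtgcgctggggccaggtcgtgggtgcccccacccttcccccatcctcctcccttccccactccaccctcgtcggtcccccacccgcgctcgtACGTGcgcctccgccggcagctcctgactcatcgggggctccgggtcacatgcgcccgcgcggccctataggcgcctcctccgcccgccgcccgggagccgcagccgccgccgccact
PFKFB3, chr10:6144671-6144920, plus strand: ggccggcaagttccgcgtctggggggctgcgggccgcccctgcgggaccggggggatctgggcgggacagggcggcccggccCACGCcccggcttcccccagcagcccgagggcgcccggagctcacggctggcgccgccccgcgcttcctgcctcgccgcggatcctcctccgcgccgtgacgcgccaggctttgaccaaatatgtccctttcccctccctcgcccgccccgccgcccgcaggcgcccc
EGLN3, chr14:33951075-33951324, minus strand: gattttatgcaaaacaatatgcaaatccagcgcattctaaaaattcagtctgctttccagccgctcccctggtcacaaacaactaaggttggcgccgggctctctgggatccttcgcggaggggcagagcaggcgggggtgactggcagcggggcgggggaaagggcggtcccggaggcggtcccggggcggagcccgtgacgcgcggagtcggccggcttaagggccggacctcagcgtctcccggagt
HK2 held 3 matches, one of them 229 bases before the start and the others as neighbours close to the gene start, while ADM, ENO2 and PFKFB3 held 1 each. Such short letters are common: 59.2% of all 7393 tested genes with a sequence held at least 1 match. So did 10 of the 15 matched genes lower by edgeR (66.7%), 12 of 15 hypoxia-induced genes (80.0%) and 12 of 22 glycolysis genes (54.5%). Among genes at least 2-fold lower in both libraries, with a counting interval that excluded 1, the share was 40 of 72 (55.6%). Among those higher in both it was 16 of 24 (66.7%), the same share as for the genes lower by edgeR. A match is a description of the letters and not a binding site.

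Mucins and PIGR made up the next group. PIGR, which ferries immunoglobulin A through epithelial cells, had 65 counts in the normal library against 3 and 8, or 59.0, 5.36 and 12.6 CPM. It was 11.0-fold lower in replicate 1 (3.60 to 54.7) and 4.67-fold lower in replicate 2 (2.24 to 11.3), with a log2 fold change of −2.66 (SE 0.55, edgeR adjusted p = 0.00261). MUC5B, a gel-forming mucin, had 33 counts on normal food and 1 count in each methionine-free library. Its pooled ratio was 17.9 (counting interval 4.57 to 154) (edgeR adjusted p = 0.00231). MUC5B met the count limit through the normal library alone, so the size of its fall is poorly known. MUC16, a very large membrane mucin, had 57 counts against 11 and 1. Its fall was 2.63-fold (1.36 to 5.56) in replicate 1 but 32.8-fold (5.65 to 1317) in replicate 2, so its value rests mostly on replicate 2. MUC12, another membrane mucin, had 100 counts against 22 and 9 (log2 fold change −1.78, edgeR adjusted p = 0.0305). The transcripts of MUC16, MUC5B and MUC12 are long (43816, 17911 and 16737 bases). With the length correction given below, MUC16, MUC5B, MUC12 and PIGR did not pass (edgeR adjusted p = 0.547, 0.217, 0.451 and 0.139). The log2 fold change of PIGR was then −2.59, close to its −2.66 without the correction. With length and GC content corrected together, PIGR (edgeR adjusted p = 0.000184) and MUC5B (0.0236) passed.

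The rest of the mucin and goblet cell list was mixed. Of 19 measured members 4 passed the test, all lower, beside 0.22% of all genes tested. PIGR is counted in this list. The list was chosen with earlier results of these data known, so its count is a description. An unadjusted p below 0.05 was found for 7 lower members and 1 higher one, beside 514 lower and 235 higher of all 9565 genes tested. The median was −0.05 in the fit, 0.13 in replicate 1 and −0.25 in replicate 2. MUC2, which forms the mucus gel of the colon, had 238, 125 and 36.3 CPM in the same order (−1.57, edgeR adjusted p = 0.0634). MUC5AC had 308, 258 and 88.3 CPM, and MUC17 had 121, 80.5 and 20.5 CPM. In each of these 3 mucins both methionine-free libraries lay below normal, and replicate 2 was by far the lower. Other mucus-related genes went both ways. TFF3, a secreted trefoil peptide, had 31.8, 41.1 and 93.1 CPM (edgeR adjusted p = 0.545), and AGR2, a folding enzyme for mucins, had 774, 917 and 1292 CPM (0.51). FCGBP, a mucus protein, had 306, 240 and 99.4 CPM (−0.86, edgeR adjusted p = 0.621). SPDEF, the goblet cell transcription factor, had 45.4, 50.1 and 42.6 CPM (0.03). Mucins share repeats and near-identical copies, and how reads with several positions were counted is not given, which makes their levels uncertain.

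The remaining called genes have varied functions. AKAP12, a scaffold for protein kinase A, had 145 CPM on normal food and 42.9 and 22.1 CPM without methionine (log2 fold change −2.17, SE 0.42, edgeR adjusted p = 0.00101). ULK1, the kinase that starts autophagy, had 161 CPM against 59.0 and 34.7 CPM (−1.79, edgeR adjusted p = 0.00795) and was the only called gene among 29 measured autophagy genes, whose median was −0.10. LPIN3, a phosphatidate phosphatase, had 119 CPM against 42.9 and 17.3 CPM, and SLC22A3, an organic cation transporter, had 52.6 CPM against 14.3 and 7.89 CPM. TNS1, a focal adhesion protein, had 217 CPM against 82.3 and 48.9 CPM. SH3D21 (118, 48.3 and 20.5 CPM) and AHNAK2 (150, 71.5 and 18.9 CPM) were lowest in replicate 2. CCDC183 (189, 76.9 and 34.7 CPM) and CCDC183-AS1 (157, 57.2 and 15.8 CPM) overlap on opposite strands, and without the strand setting of the counting their reads cannot be told apart, so they may be 1 signal.

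NEAT1 and MALAT1 are long noncoding RNAs that stay in the nucleus. NEAT1 had 950 CPM in the normal library, 395 CPM in replicate 1 and 145 CPM in replicate 2 (log2 fold change −1.82, SE 0.47, edgeR adjusted p = 0.0453). MALAT1 had 479, 218 and 78.9 CPM (log2 fold change −1.70, SE 0.42, edgeR adjusted p = 0.0325). For both RNAs the 2 methionine-free libraries lay further from each other on the log scale than replicate 1 lay from normal food. NEAT1 was 2.40-fold lower in replicate 1 and 6.55-fold lower in replicate 2. Their longest transcripts have 22743 (NEAT1) and 8708 bases (MALAT1). With the length correction given below neither passed (edgeR adjusted p = 0.217 and 0.218). With length and GC content corrected together both did (edgeR adjusted p = 0.000544 and 1.44e-05).

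Each methionine-free library was then set against the normal library on its own by a size rule with no test: a difference of at least 2-fold in TMM-scaled log2 CPM (prior count 2) and a 95% exact interval of the count ratio that excludes 1. This compares libraries, not diets. Replicate 1 had 188 genes lower (1.97%) and 70 higher (0.732%). Replicate 2 had 844 lower (8.82%) and 447 higher (4.67%). In both libraries 96 genes were lower (1%) and 28 were higher (0.293%), and 0 genes passed the rule in opposite directions. All 21 genes called by edgeR were among the 96. In both sets, genes with few counts can meet the count limit through the libraries where they are high. In the hypoxia or glycolysis lists, which hold 43 of the 9565 genes tested, were 15 of the 96. Both lists were chosen with earlier results of these data known, so this count is a description. Over all genes, 6723 (70.3%) had the same sign in both libraries, which share the normal library as their reference.

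**Figure D2:**
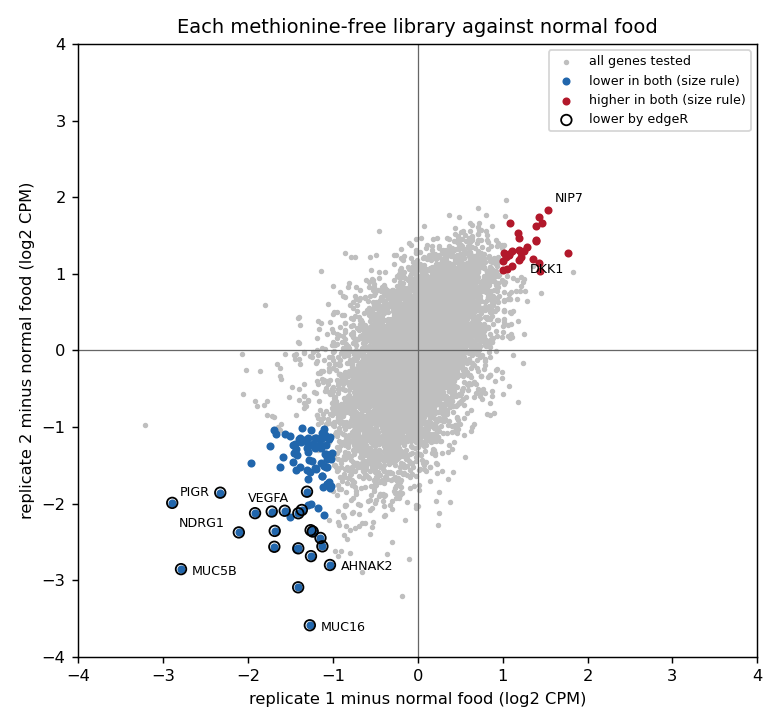
Difference from the normal library in replicate 1 (horizontal axis) and replicate 2 (vertical axis), in log2 CPM, with 1 point per tested gene. The 96 genes lower in both libraries (blue) include the 21 lower by edgeR (circled), and the 28 higher in both (red) include none that passed the test.

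The 28 genes higher in both libraries were of low abundance on normal food, with 7 to 82 counts (median 17), and their adjusted p ran from 0.0718 to 0.621. NIP7, a factor for making the large ribosomal subunit, had 19.1 CPM on normal food and 60.8 and 75.7 CPM without methionine (log2 fold change 1.83, edgeR adjusted p = 0.0718). C1GALT1C1, the chaperone of the enzyme that extends mucin-type sugars, had 16.3 CPM against 50.1 and 58.4 CPM, and ORMDL2, a regulator of sphingolipid synthesis, had 15.4 CPM against 46.5 and 58.4 CPM. DKK1, a secreted inhibitor of Wnt signalling, was better counted, with 60, 73 and 83 counts, or 54.4, 131 and 131 CPM (1.26, adjusted p = 0.368). HLA-B, which presents peptides on the cell surface, had 65.3 CPM against 154 and 166 CPM (1.29, adjusted p = 0.293). Reads of HLA genes can be split between near-identical copies.

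The genes that handle methionine itself changed little, and 0 of 12 measured members of the methionine cycle and salvage list passed edgeR's test, nor did any at an unadjusted p below 0.05 (0 lower, 0 higher; median log2 fold change 0.18, 0.14 in replicate 1 and 0.23 in replicate 2). MAT2A, which makes S-adenosylmethionine, had 474 CPM on normal food and 447 and 363 CPM without methionine (−0.23), and its regulatory partner MAT2B had 69.0, 53.7 and 117 CPM (0.32). Replicates 1 and 2 of MAT2B lay on opposite sides of the normal library. AHCY, which removes the inhibitor S-adenosylhomocysteine, had the largest value, 340 CPM against 501 and 699 CPM (0.82, adjusted p = 0.747). Its relatives AHCYL1 (−0.31) and AHCYL2 (−0.58) were below 0. The methionine synthase MTR had 54.4, 60.8 and 26.8 CPM (−0.33) and its reactivator MTRR 48.1, 53.7 and 45.7 CPM (0.04). Both signs depend on the correction for transcript length, under which MTR was at 0.07 and MTRR at −0.00. In the salvage branch MTAP, which recovers the methylthio group, had 127, 134 and 129 CPM (0.05, or −0.01 with scaling by total count). APIP (0.34), ENOPH1 (0.42) and ADI1 (0.56) follow MTAP in that branch, and MMADHC (0.48) traffics the vitamin B12 that MTR needs.

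Pathways fed by methionine were also without a called gene: 15 transsulfuration and glutathione genes (median 0.31), 25 methyltransferases (−0.01), 16 folate and serine genes (0.27), 12 polyamine genes (0.38) and 10 genes of NAD and nicotinamide metabolism (−0.16). At an unadjusted p below 0.05 edgeR had 2 lower transsulfuration genes, 1 higher methyltransferase and 1 higher polyamine gene. Over all 9565 genes tested, 514 were lower and 235 higher at that threshold. The transsulfuration median was −0.02 after the length correction, and the folate and serine median was −0.05 in replicate 1. SRM, which makes spermidine from decarboxylated S-adenosylmethionine, had 37.2 CPM on normal food and 71.5 and 77.3 CPM without methionine (1.00, adjusted p = 0.584). PCMT1, a methyltransferase that repairs damaged proteins, had 32.7 CPM against 69.7 and 63.1 CPM (1.02). SLC7A11, the cystine importer, had 87.1 CPM against 50.1 and 47.3 CPM (−0.84, adjusted p = 0.621).

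The ATF4 programme of amino acid shortage was not higher. Of 28 measured members 0 passed edgeR's test (unadjusted p below 0.05 in 6 lower and 0 higher members) and 7 had a fitted value above 0, with medians of −0.40 in replicate 1 and −0.39 in replicate 2. Over all 9565 genes tested, 514 were lower and 235 higher at that unadjusted threshold. ATF4 had 343 CPM on normal food and 266 and 371 CPM without methionine (−0.10), and ASNS, the asparagine synthetase used as its readout, had 58.1, 46.5 and 67.8 CPM (−0.02). For both genes the methionine-free libraries lay on either side of the normal one. The stress members had lower values: DDIT3 (CHOP) had 56.3, 14.3 and 30.0 CPM (−1.32, adjusted p = 0.397), ATF3 had 49.0, 17.9 and 28.4 CPM (−1.06) and NUPR1 33.6, 16.1 and 9.46 CPM (−1.40). DDIT4, an inhibitor of mTORC1 that hypoxia also induces, had 211 CPM against 96.6 and 94.6 CPM (−1.14, adjusted p = 0.358) and was the only member 2-fold lower in both libraries. The chargeable-tRNA enzymes (23 genes, median −0.02), amino acid transporters (15 genes, −0.03) and mTORC1 sensing genes (30 genes, −0.01) had 0 called members by edgeR and medians near that of all genes, and an unadjusted p below 0.05 was found for 1, 1 and 2 lower members and 0 higher ones.

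Several large housekeeping groups lay above 0 in nearly all members without a single call, and by much more in replicate 2. The 79 cytosolic ribosomal protein genes had a median log2 fold change of 0.57, with 78 above 0, but medians of 0.24 in replicate 1 and 0.84 in replicate 2. The 56 respiratory chain genes stood at 0.59 (0.25 and 0.85 in replicates 1 and 2), the 41 mitochondrial ribosomal genes at 0.59 (0.33 and 0.77) and the 31 proteasome genes at 0.53 (0.27 and 0.74). After a correction for transcript length these medians were 0.29 (cytosolic ribosome), 0.36 (respiratory chain), 0.23 (mitochondrial ribosome) and 0.25 (proteasome). Transcripts of these groups had median lengths of 1857, 1585.5, 1620 and 2586 bases in the same order, against 3750 bases over all genes. At an unadjusted p below 0.05 edgeR had 0 of the cytosolic ribosome, 16 of the respiratory chain, 7 of the mitochondrial ribosome and 1 of the proteasome genes higher. Over all 9565 genes tested, 235 were higher at that threshold. The hypoxia-induced median did not shrink under the same correction (−1.32).

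Immune-related tumour genes leaned the same way without a call. The 18 antigen presentation genes had a median of 0.41, with 14 above 0, and the 28 interferon-response genes a median of 0.41. At an unadjusted p below 0.05 edgeR had 5 and 3 of them higher, beside 235 of all 9565 genes tested. B2M, the light chain of class I molecules, had 794, 1162 and 1464 CPM (0.73). PSME1, a subunit of the proteasome activator, had 68.0 CPM on normal food and 127 and 216 CPM without methionine (1.34, adjusted p = 0.263). IFITM3 had 77.1, 111 and 205 CPM (1.04, adjusted p = 0.527). Replicate 2 was the highest of the 3 libraries for each of these 3 genes, and the medians of both lists after the length correction were 0.19 and 0.24.

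Replication and mitosis genes (26 of 36 above 0, median 0.25) and ribosome biogenesis genes (22 of 29 above 0, median 0.26) stood beside 50.3% above 0 and a median of 0.01 over all genes, and after the length correction their medians were 0.20 and 0.05. The median was 0.16 for 26 cholesterol and lipid genes, 0.13 for 20 heat shock genes, 0.00 for 10 Wnt targets, −0.08 for 27 immediate early genes and −0.07 for 17 colonocyte genes. All of these lists had 0 genes called by edgeR. At an unadjusted p below 0.05 the most were 7 lower immediate early genes, beside 514 lower of all 9565 genes tested. PCNA, the sliding clamp of replication, had 67.1, 114 and 205 CPM (1.25), while MKI67, the proliferation marker with a very long transcript, had 409, 401 and 167 CPM (−0.53). The 8 measured HT-29 epithelial markers had a median of −0.01.

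**Figure D3:**
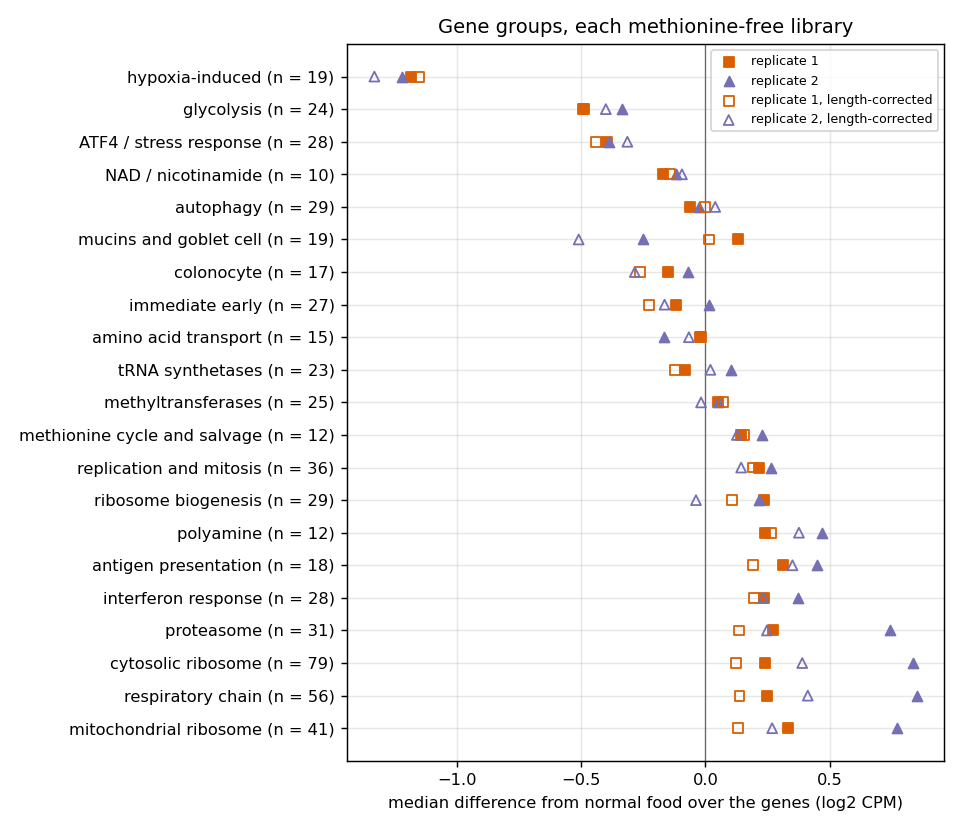
Median difference from the normal library over the measured genes of each group, in log2 CPM, for replicate 1 (squares) and replicate 2 (triangles), before (filled) and after (open) the correction for transcript length. Hypoxia-induced genes lie between −1.33 and −1.15 in both libraries, corrected or not, while the ribosomal, respiratory chain and proteasome groups lie higher in replicate 2 and move towards 0 when corrected.

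The 2 methionine-free libraries differed from each other. By the size rule 623 genes (6.51%) lay apart between them, 222 higher and 401 lower in replicate 2, against 188 lower and 70 higher between replicate 1 and normal food. Genes far higher in replicate 2 had few counts: WDR41 had 15 in the normal library, then 1 and 14 in replicates 1 and 2, TNNI2 had 27, 0 and 7, and ZNF593 had 24, 6 and 36. Genes far lower in it were SPIN3 (43, 19 and 1), LOC100190986 (64, 30 and 4) and KIAA1549 (37, 25 and 4). For WDR41 replicate 1 was the odd library, and for SPIN3 and KIAA1549 replicate 2 was.

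The difference followed transcript length. The tested genes were put into 10 equal groups by the length of their longest transcript. In the shortest group (median 1236 bases) the median log2 difference from normal food was 0.20 in replicate 1 and 0.65 in replicate 2, and in the longest (median 9569 bases) it was −0.16 and −0.67. The tryptophan/niacin-free library and the one without all 3 nutrients had medians from −0.03 to 0.03 over the 10 groups. Genes lower by the size rule went from 9 in the shortest to 25 in the longest group in replicate 1, and from 13 to 277 in replicate 2. The 21 called genes had a median transcript length of 5310 bases against 3750 for all genes, and 9 of them were in the longest group.

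**Figure D4:**
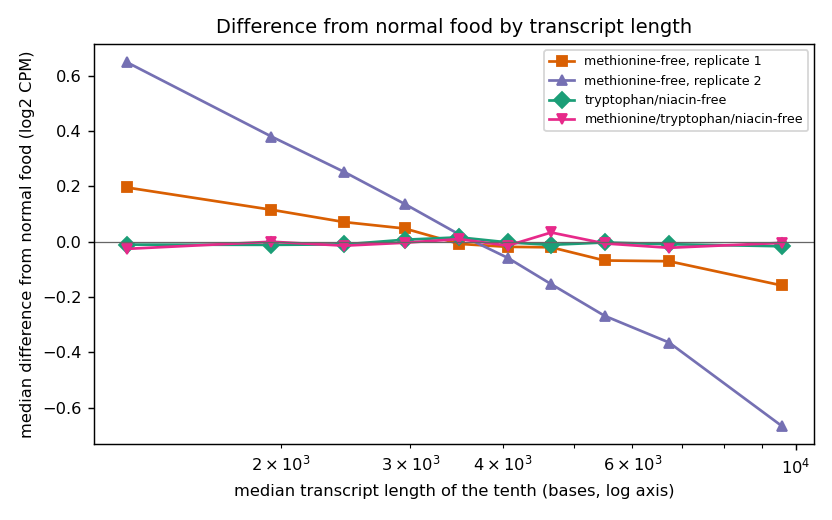
Median log2 CPM difference from the normal library (vertical axis) in 10 equal groups of genes by transcript length (horizontal axis, log scale), with 1 line per library. Replicate 2 runs from 0.65 to −0.67 and replicate 1 from 0.20 to −0.16, while the other libraries stay close to 0.

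With an offset fitted per library on transcript length, 2 of the 21 calls remained: NDRG1 (log2 fold change −2.21, edgeR adjusted p = 0.00342) and ADM (−2.47, edgeR adjusted p = 0.0376). VEGFA (−1.53), HK2 (−1.78), ENO2 (−1.97) and PFKFB3 (−1.50) kept their direction with adjusted p between 0.0815 and 0.141. MUC16 went from −2.33 to −1.45 and AHNAK2 from −1.75 to −1.16. PIGR (−2.66 to −2.59), SLC22A3 (−2.25 to −2.29) and CCDC183 (−1.77 to −1.95) changed little or grew, yet did not pass. A lost call is therefore not by itself a smaller fold change. The prior degrees of freedom, the weight of the pooled spread, were 11.8 in this fit. They were infinite in the main fit and with length and GC content corrected together. With length and GC content corrected together, 84 genes were lower and 13 higher, and 18 of the 21 were among the 84. MUC16, MUC12 and AHNAK2 were not (edgeR adjusted p = 0.187, 0.110 and 0.0614). Of the hypoxia-induced list 11 genes were then lower, and of glycolysis 4. RPL28 and ATP5G3 were then the only higher members of the cytosolic ribosome and respiratory chain lists, and NIP7 was also higher. The direction of the 21 genes was the same under all alternatives run.

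Whether leaving out methionine had another effect when tryptophan and niacin were left out too was tested with all 5 libraries, as the difference between both effects of methionine. By edgeR 47 genes (0.491%) passed. For 46 of them the difference was negative: they were lower without methionine when tryptophan and niacin were fed, and higher without methionine when these were left out. Of the 21 genes above 15 passed, and this difference shares its methionine-free and normal libraries with their choice. HK2 had 213 CPM on normal food, 62.6 and 47.3 CPM without methionine, 36.2 CPM without tryptophan and niacin, and 196 CPM without all 3. The library without all 3 was thus close to normal and the other 3 were low (difference −4.39 in log2, SE 0.68, edgeR adjusted p = 7.97e-07). NDRG1 followed the same order, with 3296 CPM on normal food, 2336 CPM without all 3 nutrients and 308 CPM without tryptophan and niacin (−5.16, SE 0.92, edgeR adjusted p = 2.97e-05).

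ENO2 (191, 176 and 37.8 CPM in the normal, the all-3 and the tryptophan/niacin-free library), ADM (111, 70.8 and 15.7 CPM), VEGFA (670, 466 and 146 CPM) and PIGR (59.0, 52.5 and 7.87 CPM) showed this pattern too. AKAP12 did not pass (difference −1.95, edgeR adjusted p = 0.277). It had 104 CPM without tryptophan and niacin and 89.1 CPM without all 3, both between the normal library (145 CPM) and the methionine-free libraries. MUC16, SLC22A3, NEAT1, SH3D21 and AHNAK2 also did not pass. DKK1 was the only gene with a positive difference (2.65, SE 0.67, edgeR adjusted p = 0.0249), with 54.4 CPM on normal food, 131 and 131 CPM without methionine, 198 CPM without tryptophan and niacin and 75.4 CPM without all 3. Each of the last 2 foods has 1 library, and the libraries with short titles (normal food and all 3 left out) are those where the 46 genes were high. Diet and handling cannot be told apart here.

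**Figure D5:**
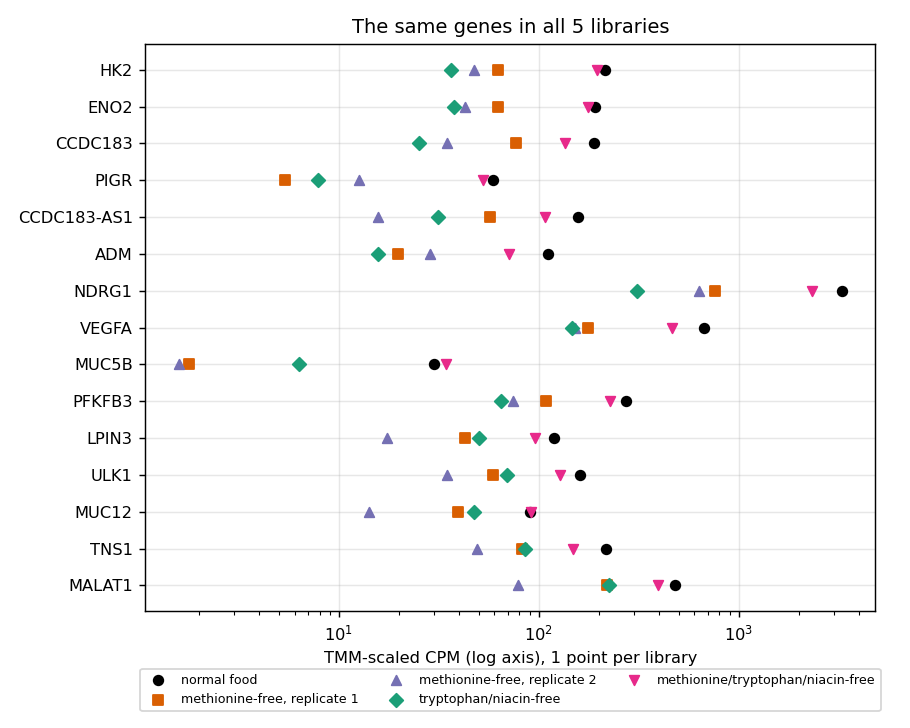
Level of the 15 genes that passed both tests in all 5 libraries, as TMM-scaled CPM on a log axis. Normal food and the food without all 3 nutrients lie together at the high end, for HK2 at 213 and 196 CPM, and the other 3 libraries lie at the low end.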

How the data were processed

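The 5 libraries sequenced were stranded mRNA libraries of tumour RNA. Per the submitters' processing notes, TopHat2 2.1.1 with Bowtie2 2.2.8, Subread 2.0.0 with featureCounts, SAMtools 0.1.18 and hg19 were used. Not given in the sources used here: annotation, strand setting, and the handling of multi-position and mouse reads. The authors deposited expected counts per gene symbol, which need not be whole (15.2% to 17.6% of values above 0 carried decimals), and they were rounded here.

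Counts were tested with edgeR 4.0.16 (quasi-likelihood F-test, TMM, Benjamini-Hochberg over 9565 genes, threshold 0.05) and limma 3.58.1 in R 4.3.3. The fit had 1 mean per diet over all 5 libraries with the methionine-free pair giving the 1 residual degree of freedom (biological coefficient of variation 0.206, infinite prior). SE is the size of the log2 fold change divided by the root of F. The size rule is given in the text. Alternatives were DESeq2 1.42.0, limma-voom, other scaling and filters, fewer libraries, and lowess offsets (span 0.3) on the longest transcript length and GC content of GENCODE 29, matched for 9461 genes (98.9%). Promoter sequences came from RefSeq, and matched 7393 of the tested genes. Scripts were tested on simulated data.

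Groups came from the treatment labels. Members and the 37 gene lists were chosen with earlier results of these data known. Named were all called genes, the 10 genes furthest from normal in each direction among those past the size rule in both libraries, up to 6 called or rule-passing members or else 2 leading members per list, the 5 highest and 5 lowest of replicate 2 against replicate 1, and measured methionine cycle genes. Other genes named were chosen after their values were seen.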

Additional observations from a re-analysis of the deposited data

Results flagged for a closer look

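For 15 genes that fell on methionine-free food, the effect of leaving out methionine differed between food with and food without tryptophan and niacin by edgeR's quasi-likelihood test of that difference. The difference in log2 was −6.43 for MUC5B, −5.37 for PIGR, −5.16 for NDRG1, −4.39 for HK2, −4.34 for ADM, −4.18 for CCDC183, −4.08 for ENO2, −3.89 for CCDC183-AS1, −3.71 for VEGFA and −3.39 for PFKFB3. It was −2.92 for LPIN3, −2.73 for MUC12, −2.68 for ULK1, −2.53 for TNS1 and −2.51 for MALAT1. The test and the choice of these genes share libraries, and 2 of the 4 foods have 1 library each. No group of this comparison held the 4 samples needed to look for an outlying sample.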

How the results depend on the processing

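The 21 genes lower kept their direction under all alternatives run. Their count was 2 with the length correction (prior degrees of freedom 11.8), 84 with length and GC corrected together and 1 with DESeq2 (38 genes at an unadjusted p below 0.05), and 20 to 25 otherwise. The prior degrees of freedom were infinite in the main fit and with length and GC. For genes higher, the count of 0 became 13 with length and GC and stayed at 0 otherwise. The cause was not tested. For the difference between both effects of methionine, 47 became 23 with the length correction. By the size rule, 96 genes lower in both libraries became 844 without replicate 1 and 188 without replicate 2, as then 1 library alone must pass, and 28 higher became 447 and 70. A 99% interval left 15 higher, and 405 between the replicates, where the count was 404 with the length correction and 623 in the main setting. Without replicate 1 the log2 fold changes of the 21 genes ran from −4.88 to −1.88 and without replicate 2 from −3.93 to −1.06. These fits have 0 residual degrees of freedom and give values with no test. Signs turned in values near 0: MTAP −0.00736 and MTRR −0.0151 with total counts, MTR 0.0672, MTRR −0.00303 and ZNF593 −0.0118 with the length correction, MTRR −0.0753 with length and GC, and NPRL2 −0.0336 with limma-voom. Scaling by total count moved the median of all genes by −0.06. No paired analysis was possible because normal food has 1 library. Depth limits genes near 10 counts, where a 2-fold difference often lies within counting error.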
